A study of Homo sapiens with 10 samples.

Results

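The genes described here encode the sensors and membrane-bound transcription factors of the unfolded protein response (UPR) and the proteases that release those factors. They are the 9 genes XBP1, ERN1, ATF6, ATF6B, CREB3, CREB3L1, CREB3L2, MBTPS1 and MBTPS2, taken by their symbols from the 28380 genes of the count table. RNA came from RPE-1 cells, an established line of human retinal pigment epithelial cells immortalized with telomerase, after 4 h with 25 µM sulforaphane (SFN), an isothiocyanate from cruciferous vegetables, or with the vehicle dimethyl sulfoxide (DMSO). Each treatment had 5 replicates of 50000 cells in complete medium, and although the study describes its replicates in general as independent, no source says whether these came from separate cultures, so the p-values measure the spread between these samples, which may be technical. All 9 genes passed the low-count filter, as did 13378 genes in all.

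Proteins enter the secretory pathway in the endoplasmic reticulum (ER), and the UPR is the set of signals that starts when unfolded proteins build up there. IRE1, encoded by ERN1, is an ER membrane kinase and endonuclease that cuts a short intron out of the XBP1 mRNA, after which the message is translated into the active factor XBP1s. ATF6 and ATF6B are factors anchored in the ER membrane that move to the Golgi, where the site 1 protease (MBTPS1) and then the site 2 protease (MBTPS2) cut them free. CREB3, CREB3L1 and CREB3L2 are related factors released by the same proteases, and PERK, encoded by EIF2AK3, is the remaining sensor kinase. Much of this pathway is controlled by splicing and cleavage, which a gene count does not show.

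The intron that IRE1 removes is shown because it marks the step that these counts do not resolve. It has 26 bases and lies in the coding part of XBP1 at chr22:28796128-28796153 of GRCh38, on the minus strand, as GENCODE 44 annotates it. It is printed in capitals within 30 bases on either side (chr22:28796098-28796183).
XBP1 intron: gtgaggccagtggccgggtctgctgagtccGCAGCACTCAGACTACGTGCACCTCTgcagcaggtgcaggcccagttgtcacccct
The first bases of the intron recur just after it, so its ends can be placed some bases apart with the same spliced product. The table has 1 count for each gene, so the spliced and unspliced forms are added together. The study's methods name Lexogen QuantSeq, a kit for counting 3′ ends, while the labels speak of standard Illumina protocols. The intron lies 1254 bases from the 3′ end of the canonical XBP1 transcript.

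The promoters are shown for the members in which a longer ER stress motif or cAMP response motif was found. RefSeq windows (GRCh38.p14) from 250 bases before to 50 bases after the start were found for all 9 genes and searched on both strands. The ER stress response element ERSE (CCAAT and CCACG with 9 bases between them), to which ATF6 is known to bind, was present in 1 of the 9 windows, that of XBP1, and in 0.0769% of all 35116 windows. The cAMP response element (TGACGTCA) was present in 1 of the 9, that of CREB3L2, and in 1.85% of all windows. In the sequences the capitals mark the ERSE of XBP1 and the cAMP response element of CREB3L2, and only the 250 bases before the start are printed, from the first of the 2 windows listed for each gene.
XBP1 promoter, chr22:28800570-28800819, minus strand: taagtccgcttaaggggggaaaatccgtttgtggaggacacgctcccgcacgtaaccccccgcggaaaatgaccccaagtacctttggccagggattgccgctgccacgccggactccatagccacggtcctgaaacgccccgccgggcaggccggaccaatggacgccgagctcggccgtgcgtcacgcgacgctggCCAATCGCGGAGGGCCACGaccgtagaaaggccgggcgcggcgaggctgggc
CREB3L2 promoter, chr7:138002087-138002336, minus strand: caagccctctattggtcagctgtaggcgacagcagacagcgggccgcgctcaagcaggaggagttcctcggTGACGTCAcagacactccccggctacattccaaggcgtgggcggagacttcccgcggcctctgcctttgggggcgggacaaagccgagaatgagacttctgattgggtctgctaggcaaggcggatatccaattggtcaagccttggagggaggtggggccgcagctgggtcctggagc
The ERSE of XBP1 begins at position -52 from the start, and the motif of CREB3L2 at position -179. The letters CCACG, which also form the end of ERSE, was present in 4 of the 9 windows and in 38.1% of all windows. The antioxidant response element TGACNNNGC was present in 1 of the 9, that of ERN1, and in 13.3% of all windows. The UPR element core TGACGTG (1.97% of all windows), the C/EBP-ATF composite element TGATGNAA (3.62%) and the heat shock element (GAA, TTC and GAA, each set apart by 2 bases; 0.49%) were in 0 of the 9. A match is a string of letters and not a measured binding site.

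Total counts ranged from 15689294 to 20666692 in the DMSO libraries and from 12375860 to 17308706 in the SFN libraries. DMSO replicate 1 stood apart from the other DMSO libraries. A library's length slope is the change in its log2 CPM, relative to the mean of all libraries, for each doubling of transcript length, where CPM are counts scaled to library size by the TMM method. It was -0.271 in DMSO replicate 1, between 0.0872 and 0.148 in DMSO replicates 2 to 5, and between -0.183 in replicate 2 and 0.109 in replicate 5 of SFN. The share of counts from mitochondrial genes was 1.25 to 2.07% in DMSO and 2.06 to 2.69% in SFN. Of 8 markers of blood, endothelial, carcinoma and liver cells, 4 were among the genes analysed here, PTPRC, PECAM1, CDH5 and EPCAM, and their summed level was at most 0.623 CPM in a DMSO library and 0.417 CPM in an SFN library. Of 14 markers of the RPE-1 lineage, 10 were tested, of which 4 passed the test in edgeR, all of them lower. Over all tested genes, 23.0% passed in either direction and 13.9% were lower. Among the 4 markers, TERT passed the low-count filter through the DMSO libraries alone (18 to 33 counts, against 1 to 6 in SFN). Its place in that count therefore lends no support. The pigment cell factor MITF went from 50.8 to 23.4 CPM, SOX9 from 67.6 to 26.4 CPM, OTX2 from 14.0 to 9.01 CPM and TERT from 1.45 to 0.264 CPM (edgeR adjusted p between 3.1e-05 for SOX9 and 0.0029 for OTX2). The 6 that did not pass included the keratin KRT8, with 383 CPM in DMSO and 449 CPM in SFN, the eye field factor PAX6, with 46.6 and 46.9 CPM, and the channel BEST1, with 18.8 and 42.4 CPM. Without DMSO replicate 1, KRT8 and BEST1 were past the threshold as higher (edgeR adjusted p = 0.016 and 0.0096). RPE65, an enzyme of mature retinal pigment epithelium, had at most 3 counts in any library, RLBP1 at most 4 and SERPINF1 at most 2. The part of these markers in the results below was not tested.

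Of the 9 genes, XBP1 rose and the other 8 did not pass the test. XBP1 rose 4.42-fold (95% interval 3.78 to 5.17) at 4 h of SFN. The log2 fold changes of the other 8 lay between -0.36 for CREB3L1 and 0.29 for ATF6, and 6 of them were positive. In the quasi-likelihood test of edgeR, with p-values adjusted by the Benjamini-Hochberg method over the 13378 genes, 1 of the 9 passed the threshold of 0.05, against 23.0% of all genes. That 1 was higher, against 9.07% of all genes, and 0 were lower, against 13.9%. In RNA from whole cultures, fewer cells that express a gene and less of its RNA per cell cannot be told apart. At an unadjusted p under 0.05, 3 were higher and 0 lower, against 14.6 and 20.0% of all genes. DESeq2 called 2 higher and 0 lower (12.3 and 16.0% of all genes). With quantile normalization, limma-voom called 1 higher, as it did 1338 of the 13378 genes, and 0 lower, against 11.5%. Limma-voom with sample quality weights called 3 higher and 2 lower, against 29.0 and 30.2%, so both shares were near the background. The median log2 fold change of the 9 genes was 0.17, beside -0.028 over all tested genes. The plot of CPM by library shows XBP1 as the gene whose groups lie apart.

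**Figure D1:**
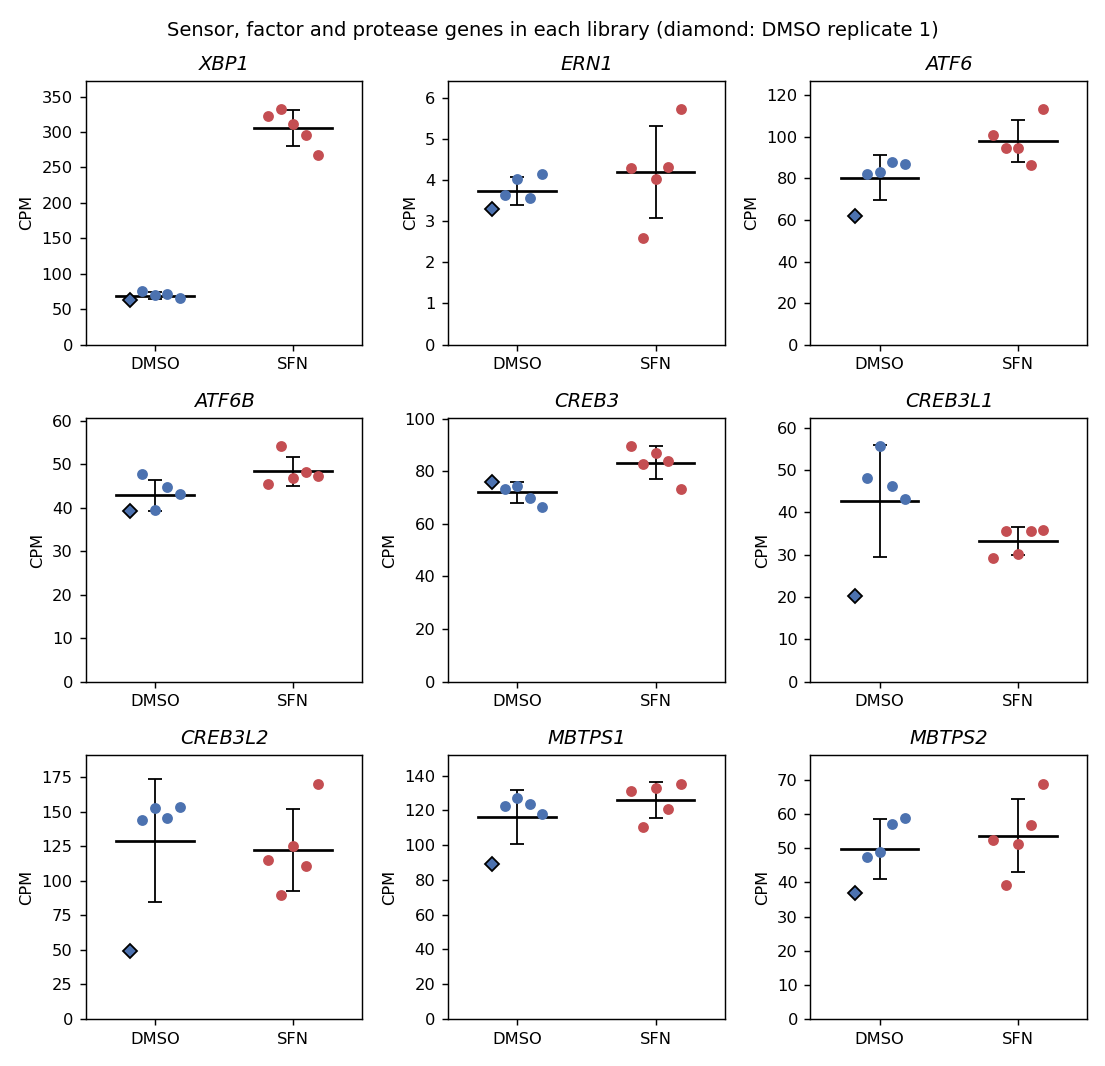
CPM (vertical axes, each from 0) of the 9 genes in the 5 DMSO (blue) and 5 SFN (red) libraries; bars are means ± SD, and the diamond is DMSO replicate 1. XBP1 lies between 62.9 and 75.5 CPM in DMSO and between 267 and 332 CPM in SFN, and in the other 8 genes the groups overlap.

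XBP1 (ENSG00000100219, chromosome 22, 28794555 to 28800597, minus strand) encodes the factor that drives genes of ER folding, translocation and degradation once its message has been spliced. Its level in DMSO replicates 1 to 5 was 62.9, 75.5, 69.7, 71.6 and 66.1 CPM, and in SFN replicates 1 to 5 it was 322, 332, 311, 295 and 267 CPM. All 5 SFN libraries lay above all DMSO libraries, as was the case for 8.78% of the genes tested, and the groups lay apart in either direction for 19.9%. The mean rose from 69.2 ± 4.88 CPM (SD, n = 5) to 306 ± 25.5 CPM (SD, n = 5), a log2 fold change of 2.14 (with its standard error, SE, of 0.10, edgeR adjusted p = 1.9e-07), higher than that of 99.1% of the genes tested. The counts behind these values were 1010 to 1658 in a DMSO library and 3784 to 5406 in an SFN library. DMSO replicate 1 was within 0.17 log2 units of the mean of the other DMSO libraries for this gene. The spread within a group was 7.06% of the mean in DMSO and 8.34% in SFN.

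ERN1 (ENSG00000178607, chromosome 17, 64039080 to 64130819, minus strand), which encodes the sensor that splices this message, had few reads, 53 to 80 counts in a DMSO library and 30 to 81 in an SFN library. Its level was 3.30, 3.65, 4.03, 3.55 and 4.14 CPM in DMSO replicates 1 to 5 and 4.29, 2.59, 4.02, 4.32 and 5.72 CPM in SFN replicates 1 to 5. SFN replicate 2 was below every DMSO library, SFN replicates 1, 4 and 5 were above every DMSO library, and SFN replicate 3 was within their range. The log2 fold change was 0.17 (SE 0.20, edgeR adjusted p = 0.60), and its 95% interval of -0.26 to 0.60 includes changes of up to 1.52-fold. A rise in ERN1 as large as that of XBP1 lies outside this interval. ERN1 did not pass the threshold in any of the 18 alternative analyses.

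The kinase sensors ERN1 and EIF2AK3 were compared within each library, where the scaling between libraries plays no part. EIF2AK3, which is not among the 9 genes, rose from 25.9 ± 6.59 CPM (SD, n = 5) to 64.9 ± 8.32 CPM (SD, n = 5), with a log2 fold change of 1.33 (SE 0.19, edgeR adjusted p = 3.4e-04). The log2 ratio of ERN1 to EIF2AK3 counts lay between -3.14 and -2.17 in DMSO and between -4.36 and -3.73 in SFN, without overlap. It fell by 1.23 on the log2 scale (p = 0.0079 by a two-sided exact permutation test of 5 against 5 samples, the smallest p this design allows; 0.032 adjusted over the 4 ratios tested). By this test the message of PERK rose relative to that of IRE1. EIF2AK3 was chosen with earlier results of these data known and was itself called higher, so the ratio is not separate support. A ratio does not remove a dependence on transcript length, and the canonical transcripts have 7895 bases in ERN1 and 4536 in EIF2AK3. The part of length was not tested. Without DMSO replicate 1, which had the ratio of -2.17, the difference was -1.09. With same-numbered replicates taken as pairs, the exact permutation p for the ratio was 0.062, the smallest that 5 pairs allow. Adjusted over the 4 ratios it was 0.25.

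ATF6 and ATF6B encode paralogous factors, of which ATF6 is the stronger activator of ER chaperone genes. ATF6 (ENSG00000118217, chromosome 1, 161766298 to 161977574, plus strand) had 61.7, 82.4, 83.1, 88.0 and 86.9 CPM in DMSO replicates 1 to 5 and 101, 94.5, 94.9, 86.5 and 113 CPM in SFN replicates 1 to 5. In SFN 4 of 5 libraries were above every DMSO library, and DMSO replicate 1 was the lowest of all. Its log2 fold change was 0.29 (SE 0.12, 95% interval 0.021 to 0.55, unadjusted p = 0.037, edgeR adjusted p = 0.12), and without DMSO replicate 1 it was 0.20. ATF6B (ENSG00000213676, chromosome 6, 32115264 to 32128253, minus strand) went from 42.9 ± 3.57 to 48.4 ± 3.36 CPM (SD, n = 5 each), with a log2 fold change of 0.17 (SE 0.099, 95% interval -0.044 to 0.39, adjusted p = 0.25). In 2 SFN libraries ATF6B was above every DMSO library. The log2 ratio of ATF6 to ATF6B was 0.90 ± 0.18 in DMSO and 1.01 ± 0.20 in SFN (SD, n = 5 each), a difference of 0.12 with p = 0.34 by the exact permutation test. Within each library, then, no shift between the paralogs beyond the replicate spread was detected.

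The proteases that cut these factors free had small fold changes. MBTPS1 (ENSG00000140943, chromosome 16, 84053761 to 84116942, minus strand), the first to cut, had 89.4 CPM in DMSO replicate 1, 118 to 127 CPM in the other DMSO libraries and 111 to 136 CPM in SFN. Its log2 fold change was 0.12 (SE 0.12, 95% interval -0.14 to 0.37, edgeR adjusted p = 0.53), and without DMSO replicate 1 it was 0.033. MBTPS2 (ENSG00000012174, chromosome X, 21839617 to 21885423, plus strand), the intramembrane protease that cuts second, ranged from 36.9 to 58.8 CPM in DMSO and from 39.3 to 69.0 CPM in SFN, with a log2 fold change of 0.11 (SE 0.17, 95% interval -0.25 to 0.47, adjusted p = 0.70), and 0.015 without DMSO replicate 1. YY2 lies within the span of MBTPS2 on the same strand and had a median of 94 counts. Whether their exons overlap, so that reads could be assigned to either gene, was not checked. The log2 ratio of MBTPS1 to MBTPS2 was 1.23 ± 0.16 in DMSO and 1.25 ± 0.21 in SFN (SD, n = 5 each; p = 0.84 by the exact permutation test).

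CREB3 (ENSG00000107175, chromosome 9, 35732598 to 35736999, plus strand), also called Luman, had 75.9, 73.1, 74.5, 69.8 and 66.4 CPM in DMSO replicates 1 to 5 and 89.4, 82.7, 87.0, 83.7 and 73.2 CPM in SFN replicates 1 to 5. SFN replicate 5 lay within the DMSO range and the other 4 SFN libraries above it. The log2 fold change was 0.21 (SE 0.093, 95% interval 0.0068 to 0.41, unadjusted p = 0.044, edgeR adjusted p = 0.13). This gene changed its call with the analysis: without DMSO replicate 1 the log2 fold change was 0.22 and the edgeR adjusted p 0.039. GBA2 overlaps CREB3 on the opposite strand with a median of 329 counts, and the use of strand in counting is not given in the sources used here.

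CREB3L1, also called OASIS, and CREB3L2, also called BBF2H7, are paralogs known for driving secretory and collagen genes in bone and cartilage. CREB3L1 (ENSG00000157613, chromosome 11, 46277662 to 46321409, plus strand) had 20.4, 48.1, 55.6, 46.3 and 43.2 CPM in DMSO replicates 1 to 5 and 29.3, 35.5, 30.1, 35.5 and 35.7 CPM in SFN replicates 1 to 5. All SFN libraries lay below DMSO replicates 2 to 5 and above DMSO replicate 1. With all 10 libraries the log2 fold change was -0.36 (SE 0.22, 95% interval -0.84 to 0.11, edgeR adjusted p = 0.27). Without DMSO replicate 1 it was -0.55 with an edgeR adjusted p of 6.4e-04, while with the length slope of each library as a covariate it was -0.10 with an adjusted p of 0.54.

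CREB3L2 (ENSG00000182158, chromosome 7, 137874979 to 138002086, minus strand) had the widest spread of the 9 genes in DMSO, which rested on replicate 1. It had 49.3, 144, 152, 145 and 153 CPM in DMSO replicates 1 to 5 and 115, 89.7, 125, 111 and 170 CPM in SFN replicates 1 to 5. SFN replicates 1 to 4 lay below DMSO replicates 2 to 5, SFN replicate 5 above all DMSO libraries, and DMSO replicate 1 below all others. The log2 fold change was -0.077 (SE 0.28, 95% interval -0.68 to 0.53, edgeR adjusted p = 0.88). Its direction depended on the model. It was -0.31 (adjusted p = 0.0057) by limma-voom with sample quality weights and 0.32 (adjusted p = 0.0014) by edgeR with the length slope as a covariate. The log2 ratio of CREB3L1 to CREB3L2 was -1.56 ± 0.21 in DMSO and -1.85 ± 0.36 in SFN (SD, n = 5 each; p = 0.16 by the exact permutation test).

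**Figure D2:**
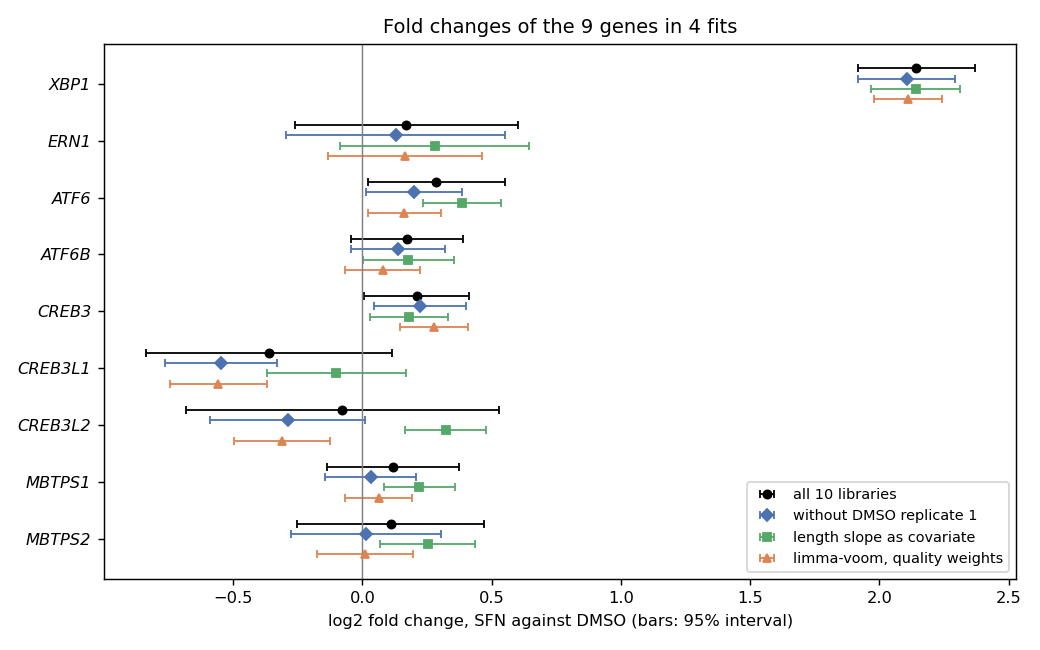
Log2 fold change of SFN against DMSO (horizontal axis) with its 95% interval for the 9 genes in 4 fits: edgeR with all 10 libraries, edgeR without DMSO replicate 1, edgeR with the length slope as a covariate, and limma-voom with sample quality weights. XBP1 stays between 2.11 and 2.14 in all 4, whereas CREB3L2 lies on either side of 0.

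The distance of DMSO replicate 1 from its group differed between the genes. Its log2 difference from the mean of DMSO replicates 2 to 5 was -1.60 for CREB3L2, -1.25 for CREB3L1, -0.52 for MBTPS2, -0.46 for ATF6 and -0.46 for MBTPS1. It was -0.22 for ERN1, -0.17 for XBP1, -0.15 for ATF6B and 0.098 for CREB3. The canonical transcript has 7441 bases in CREB3L2 and 1496 in CREB3, but CREB3L1 has 2673 and ERN1, the longest, 7895. Without DMSO replicate 1 the spread of CREB3L2 in DMSO fell from 34.7 to 3.15% of the mean. Beside each level, the plot of length slopes gives the slope of its library, and the part of the slope in the difference between groups cannot be told apart from treatment for CREB3L2, since 4 of the SFN libraries have negative slopes and 4 of the DMSO libraries positive ones.

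**Figure D3:**
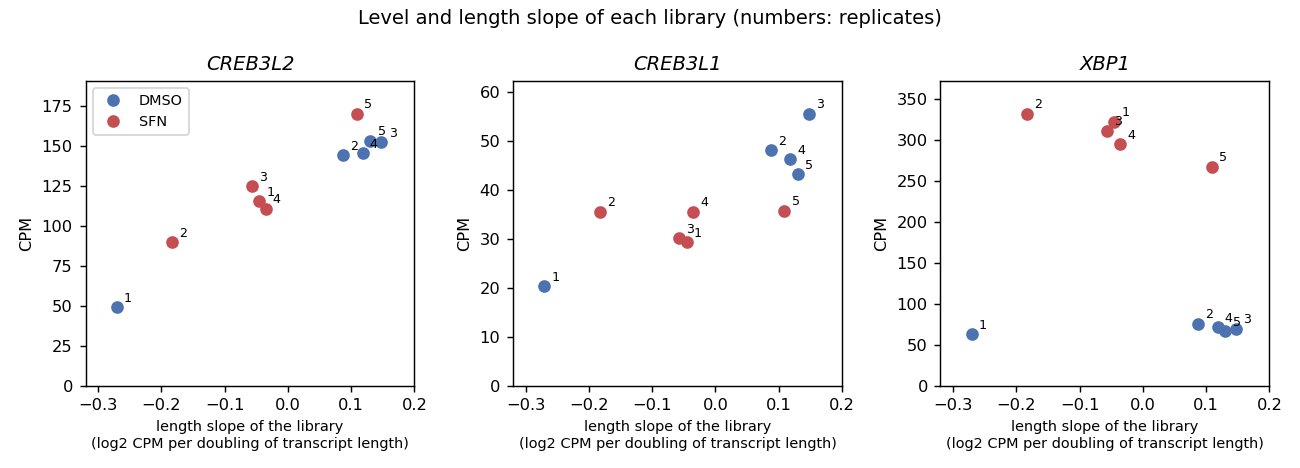
CPM (vertical axes, from 0) of CREB3L2, CREB3L1 and XBP1 against the length slope of each library (horizontal axes), with replicate numbers. CREB3L2 is lowest in DMSO replicate 1 (slope -0.271) and highest in SFN replicate 5 (slope 0.109), while XBP1 is higher in every SFN library than in every DMSO library. Of the SFN libraries, only replicate 5 has a slope among those of DMSO replicates 2 to 5.

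The analyses that handle DMSO replicate 1 differently changed the number of members called. Without it, 2 of the 9 genes (XBP1 and CREB3) were higher and 1 (CREB3L1) lower, against 22.5 and 23.5% of the genes tested and 46.1% in either direction. With the length slope as a covariate, 6 were higher (XBP1, ATF6, CREB3, CREB3L2, MBTPS1 and MBTPS2) and 0 lower, against 24.6 and 25.6%. By limma-voom with sample quality weights, 3 were higher (XBP1, ATF6 and CREB3) and 2 lower (CREB3L1 and CREB3L2), against 29.0 and 30.2%. In all 3 XBP1 was the single member with a change above 2-fold. ATF6B and ERN1 passed in none of the 3.

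**Figure D4:**
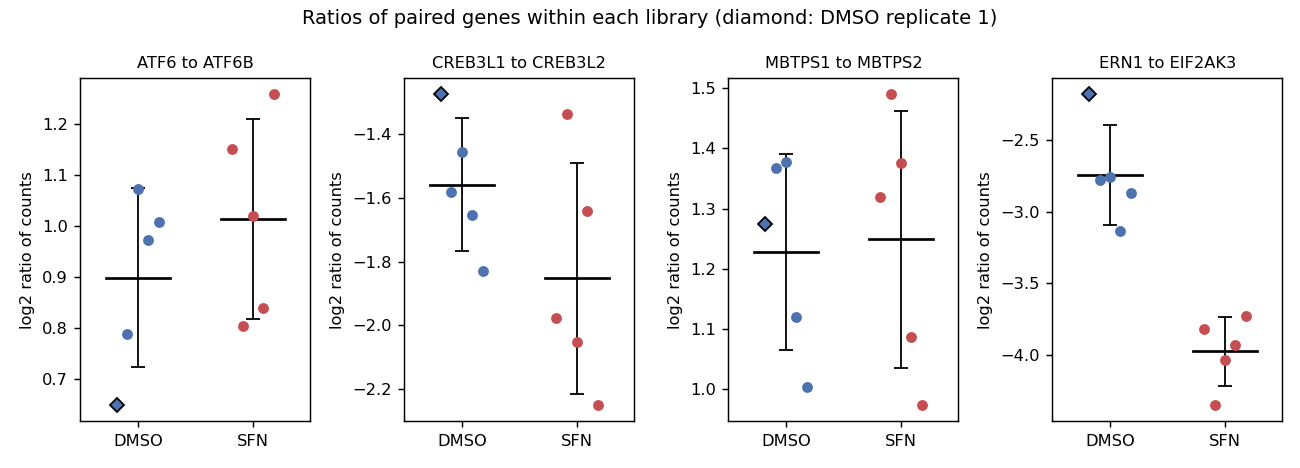
Log2 ratio of the counts of paired genes within each library (vertical axes, each with its own range), in DMSO (blue) and SFN (red); bars are means ± SD, and the diamond is DMSO replicate 1. The ratio of ERN1 to EIF2AK3 is at or below -3.73 in every SFN library and at or above -3.14 in every DMSO library, and the other 3 ratios overlap.

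The genes around these sensors were described with 8 lists, written by hand with earlier results of these data known. Their counts stand beside 9.07% higher and 13.9% lower among all genes tested, or 22.5 and 23.5% without DMSO replicate 1. XBP1 targets serve folding, translocation and degradation in the ER. Of 30 tested, 12 rose and 0 fell in edgeR (18 and 0 at an unadjusted p under 0.05; 0 fell by DESeq2 and by limma-voom with quantile normalization and 1 with sample quality weights), and their median log2 fold change was 0.36. Without DMSO replicate 1, 23 of the 30 were higher and 0 lower. DNAJB9, an ER co-chaperone that returns IRE1 to its inactive state, rose from 15.8 ± 1.86 to 59.4 ± 3.91 CPM (log2 fold change 1.91, SE 0.11, adjusted p = 8.0e-07). DNAJC3, the co-chaperone P58IPK, rose from 92.1 ± 11.5 to 166 ± 28.1 CPM, and DNAJB11, a co-chaperone of BiP, rose from 124 ± 6.72 to 215 ± 5.10 CPM. EDEM1, which hands misfolded glycoproteins to degradation, had a log2 fold change of 0.41 (adjusted p = 0.014) and was past the threshold in 16 of 18 alternatives. SPCS3, a subunit of the signal peptidase, had a log2 fold change of 0.36 (adjusted p = 0.029) and was past it in 7 of 18.

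The list of ATF6 targets holds large ER chaperones beside co-chaperones, disulfide isomerases and genes of ER-associated degradation. Of 18 tested, 13 rose and 0 fell in edgeR (14 and 0 at an unadjusted p under 0.05; 0 fell by DESeq2 and by both limma-voom fits), and the median was 0.51. HERPUD1, part of the machinery of ER-associated degradation, rose from 21.02 ± 6.60 to 163 ± 18.3 CPM (SD, n = 5 each; log2 fold change 2.95, SE 0.20, adjusted p = 1.8e-06). MANF, a secreted protein of the stressed ER, rose from 118 ± 26.4 to 223 ± 23.5 CPM. PDIA4, a disulfide isomerase, had a log2 fold change of 0.41 (adjusted p = 0.019) and HSP90B1, the ER form of HSP90, one of 0.39 (adjusted p = 0.045), and these were past the threshold in 13 and 6 of 18 alternatives. HSPA5, which encodes BiP, the chaperone that holds the sensors inactive, was chosen after its values were seen. It had 1538 CPM in DMSO replicate 1, 885 to 1010 CPM in the other DMSO libraries and 1707 to 2100 CPM in SFN (log2 fold change 0.90, SE 0.16, edgeR adjusted p = 0.0019), and without DMSO replicate 1 its log2 fold change was 1.07. DNAJB9, DNAJB11, DNAJC3, PDIA6, HYOU1 and CRELD2 are on the lists of both XBP1 and ATF6 targets. DNAJC3 is also on the list of the PERK branch, and other lists share genes too. The lists are therefore not separate measurements.

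Of the 8 lists, the one named for the PERK branch had the largest median log2 fold change, 1.70. In edgeR 9 of its 10 genes were higher and 0 lower, as they were at an unadjusted p under 0.05. By DESeq2 and by both limma-voom fits 0 were lower. The list was written by hand with earlier results of these data known, and the activity of PERK was not measured. TRIB3, a pseudokinase, rose from 5.16 ± 1.22 to 39.1 ± 8.64 CPM, and DDIT3, the factor CHOP, rose from 7.57 ± 1.67 to 35.1 ± 7.80 CPM (SD, n = 5 each). CHAC1, which breaks down glutathione, had 1 to 4 counts in a DMSO library and 200 to 259 in an SFN library. It passed the low-count filter through the SFN libraries alone, so its place among the 9 genes counted as higher lends no support. The list median includes it too. NFE2L2, which encodes NRF2, a factor that PERK can phosphorylate, had the smallest increase of the PERK genes named here, with a log2 fold change of 0.69 (edgeR adjusted p = 8.9e-04).

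**Figure D5:**
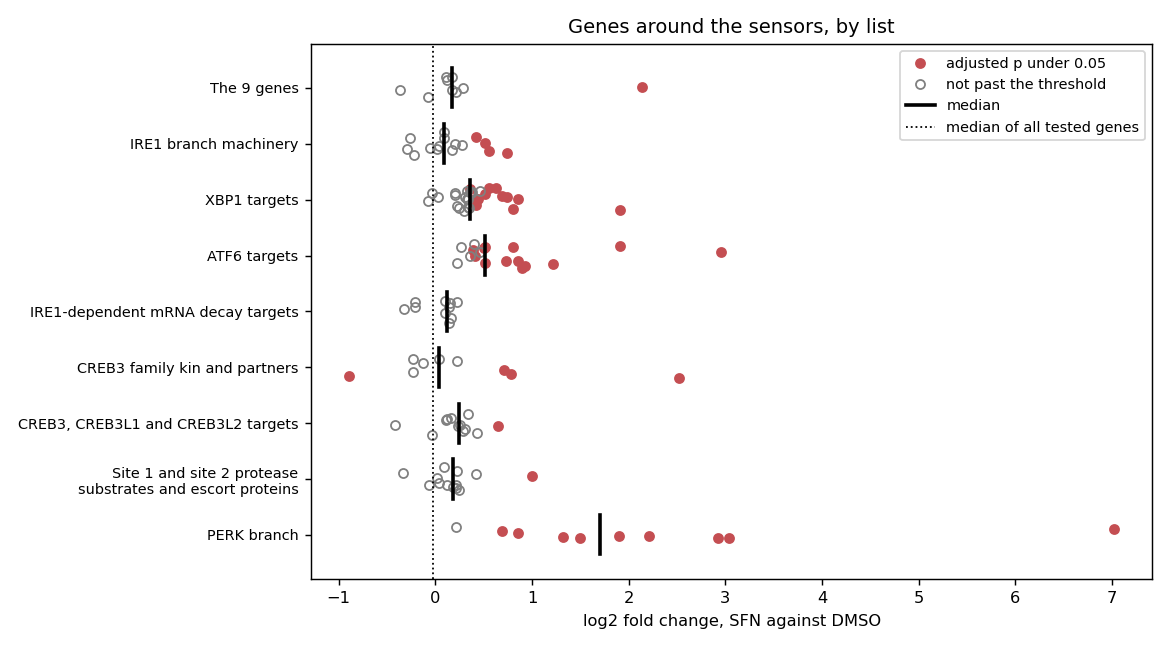
Log2 fold change of SFN against DMSO (horizontal axis) for the 9 genes and for each gene of 8 lists around them; filled points have an adjusted p under 0.05, black bars are list medians, and the dotted line is the median of all tested genes (-0.028). The medians are 0.36 for XBP1 targets, 0.51 for ATF6 targets and 1.70 for the PERK branch, and 0.17 for the 9 genes themselves.

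The machinery of the IRE1 branch, which includes the RNA ligase that joins the XBP1 exons, had 4 of 15 genes higher and 0 lower in edgeR (4 and 0 at an unadjusted p under 0.05; 0 lower by DESeq2 and by limma-voom with quantile normalization and 2 with sample quality weights). The 4 were SYVN1, an ER ubiquitin ligase (log2 fold change 0.75, adjusted p = 6.9e-04), TMBIM6, an ER membrane protein that restrains IRE1 (0.56, adjusted p = 0.015), PDIA6 (0.51, adjusted p = 0.0017), a disulfide isomerase, and SEC61A1 (0.42, adjusted p = 0.025), the channel of the translocon, of which SEC61A1 was past the threshold in 11 of 18 alternatives. SYVN1, PDIA6 and SEC61A1 are also on the list of XBP1 targets, and the ligase gene RTCB did not pass the test. The median of the IRE1 list was 0.090. Without DMSO replicate 1, 8 were higher and 2 lower, and the median relative to that of all genes went from 0.12 to 0.25. IRE1 also cleaves other messages at the ER membrane, and of 10 such targets 0 rose and 0 fell in edgeR (0 and 0 at an unadjusted p under 0.05, 0 and 0 by DESeq2 and by limma-voom with quantile normalization, and 2 and 1 with sample quality weights). Their median was 0.12. Relative to that of all genes it was 0.15, but -0.0061 without DMSO replicate 1, where 1 was higher and 1 lower, and -0.0081 with sample quality weights.

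Among 9 kin and partners of the CREB3 family, 3 rose and 1 fell in edgeR, with a median log2 fold change of 0.039. Less the median of all genes it was 0.067, but -0.096 without DMSO replicate 1, where 3 were higher and 2 lower. CREBRF, the factor named for binding CREB3 and promoting its breakdown, rose from 4.505 ± 1.08 to 25.8 ± 6.74 CPM (SD, n = 5 each; log2 fold change 2.52, SE 0.22, adjusted p = 1.0e-05). CREBZF, a bZIP protein that binds CREB3 and represses it, was lower in SFN, at 35.4 ± 9.17 CPM against 65.7 ± 6.34 CPM in DMSO (log2 difference -0.89, SE 0.18, adjusted p = 0.0041). ATF2 and CREM, bZIP factors that bind cAMP response elements, had log2 fold changes of 0.78 (adjusted p = 0.010) and 0.71 (adjusted p = 0.0071). These 4 genes were past the threshold in the same direction in 18 of 18 alternatives.

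Targets of CREB3, CREB3L1 and CREB3L2, which include COPII coat and collagen genes, had 1 of 12 higher and 0 lower in edgeR (5 and 1 at an unadjusted p under 0.05; 0 lower by DESeq2 and by limma-voom with quantile normalization and 2 with sample quality weights), with a median of 0.25. The share higher was near the 9.07% of all genes, and without DMSO replicate 1, 4 were higher and 1 lower. The gene past the threshold was ARF4, a Golgi GTPase induced by CREB3, which rose from 362 ± 72.3 to 566 ± 65.3 CPM (log2 fold change 0.65, adjusted p = 0.0072). Of 13 substrates and escort proteins of the site 1 and site 2 proteases, 1 was higher and 0 lower by the same test (2 and 1 at an unadjusted p under 0.05; 0 lower by DESeq2 and by limma-voom with quantile normalization and 2 with sample quality weights), with a median of 0.19. This share too was near the 9.07% of all genes, and without DMSO replicate 1, 4 were higher and 1 lower. The gene past the threshold was TXNDC12, also called ERp18, an ER oxidoreductase that acts on ATF6 on its way to the Golgi, and it rose from 14.3 ± 3.19 to 28.7 ± 4.44 CPM (log2 fold change 0.998, edgeR adjusted p = 0.0013).

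The genes most like XBP1 over the 10 libraries were sought by the root mean square difference of log2 CPM, each gene being centred on its DMSO mean, among 10039 genes with at least 5 CPM on average. SLC3A2, the shared subunit of several amino acid transporters, was nearest with a difference of 0.18 log2 units, followed by PMAIP1, which encodes the BH3-only protein NOXA (0.19), PPP1R15A, the stress-induced subunit of the eIF2α phosphatase (0.19), HSPH1, an HSP110 chaperone (0.21), and ZNF419, a zinc finger gene (0.21). Their log2 fold changes ranged from 1.90 for PPP1R15A to 2.17 for SLC3A2. These genes were picked for closeness to XBP1 in the same libraries, so fold changes near its own follow from the choice. For ERN1 the nearest were ITGAV, SPRED1 and MSC-AS1, each at 0.11 log2 units, and none of these passed the test. That too follows from the choice, since ERN1 itself did not pass.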

How the data were processed

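The authors sequenced RNA of RPE-1 cells, 5 DMSO and 5 SFN replicates, as Lexogen QuantSeq libraries (per the methods; the labels name standard Illumina protocols) and aligned to GRCh38 with a Bluebee pipeline. The deposited table holds raw counts for each Ensembl gene, 1 column a replicate and not normalized, and the submitters' processing notes name FastQC, STAR, featureCounts and edgeR without versions. Use of strand and of molecular identifiers is not given in the sources used here. Between replicates of a group, chi-square divided by its degrees of freedom was 3.50 to 243, so no pair agreed within sampling noise.

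Counts were filtered with filterByExpr, scaled by TMM and compared with glmQLFit and glmQLFTest (edgeR 4.0.16, limma 3.58.1, DESeq2 1.42.0, R 4.3.3), with Benjamini-Hochberg adjustment over the tested genes and a threshold of 0.05. Standard errors were obtained as the size of the log2 fold change over the root of F. The authors' fit of limma on voom weights for repeated measures was not run, and limma-voom with quantile normalization was the nearest alternative. Ratios used counts plus 0.5 and an exact permutation test. Where a symbol had more than 1 row, the row with the higher total was used.

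Genes named are the 9 genes, EIF2AK3, up to 3 genes with the largest and 2 with the smallest log2 fold change among significant genes of each list with at least 5 CPM on average, and those nearest to XBP1 and ERN1. The genes and lists were chosen with earlier results of these data known. Alternatives were another normalization, test or filter, a replicate block and leaving out each library; the length slope covariate was chosen after seeing the data. Methods were tested on simulated data. Positions are from GENCODE 44 (28145 of 28380 identifiers found).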

Additional observations from a re-analysis of the deposited data

Results flagged for a closer look

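In each value below, the gap of 1 replicate to its nearest neighbour was large against the range of its group of 5, and the number is that gap divided by the range. DMSO replicate 1 was the replicate in all 4 cases, with 0.788 for the CPM of ATF6, 0.912 for that of CREB3L2, 0.753 for that of MBTPS1 and 0.855 for the length slope. For the 3 genes it was the lowest library. Of 32 groups examined, about 2 would show such a gap by chance.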

How the results depend on the processing

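XBP1 kept its direction and call in all 18 alternatives, with a log2 fold change of 2.05 to 2.19 here and of 2.11 to 2.19 when replicates were left out. With a replicate left out, the log2 fold change ranged from 0.035 to 0.30 for ERN1, from 0.20 to 0.33 for ATF6, from 0.14 to 0.21 for ATF6B, from 0.18 to 0.25 for CREB3, from -0.55 to -0.25 for CREB3L1, from -0.29 to 0.017 for CREB3L2, from 0.033 to 0.17 for MBTPS1 and from 0.0049 to 0.21 for MBTPS2. CREB3L2 had a positive value (0.017) without SFN replicate 2.

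With sample quality weights in limma-voom, values past the threshold were 0.16 for ATF6, 0.28 for CREB3, -0.56 for CREB3L1 and -0.31 for CREB3L2, and with the length slope as a covariate 0.39 for ATF6, 0.18 for CREB3, 0.32 for CREB3L2, 0.22 for MBTPS1 and 0.25 for MBTPS2. CREB3 was past it at 0.22 by DESeq2. The cause was not tested. Over all genes, 3076 were called, 1214 higher and 1862 lower. With library size alone 819 were higher and 2163 lower. With quality weights 7915 were called (3874 higher, 4041 lower), with the length slope 6723 (3292 and 3431), and with a replicate left out 2383 to 6251 (906 to 3058 higher, 1470 to 3193 lower), the most without DMSO replicate 1. Of 103 genes on the lists, 35 were higher and 1 lower, against 9.07 and 13.9% of all genes. With quality weights 65 and 10 were, against 29.0 and 30.2%, and with the length slope 63 and 5, against 24.6 and 25.6%. With a replicate left out the counts were 29 to 58 and 1 to 7, the most without DMSO replicate 1, against 22.5 and 23.5% there. The lists were written with earlier results of these data known, so these counts are a description only.

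Same-numbered DMSO and SFN replicates had correlations of their deviations from -0.27 to 0.48. For 1 of 5 DMSO replicates the best match was the SFN replicate of its own number. These values do not settle whether the number pairs the samples. With the replicate block 2441 genes were called, the XBP1 log2 fold change was 2.14, no call of the 9 genes changed, and the ERN1 to EIF2AK3 ratio differed by -1.23 (exact permutation p = 0.062, the smallest that 5 pairs allow, and 0.25 adjusted over the 4 ratios). The ratio differences with a replicate left out were -1.33 to -1.09 for ERN1 to EIF2AK3, 0.054 to 0.17 for ATF6 to ATF6B, -0.42 to -0.19 for CREB3L1 to CREB3L2, and -0.039 to 0.090 for MBTPS1 to MBTPS2, which was -0.0062 without DMSO replicate 4, -0.035 without DMSO replicate 5, -0.039 without SFN replicate 2 and -0.011 without SFN replicate 3. Without SFN replicate 2 the CREB3L1 to CREB3L2 difference had an exact permutation p of 0.048, or 0.095 adjusted over the 4 ratios. ERN1 had the fewest counts of the 9 genes, 30 to 81 in an SFN library.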
